A study of Mus musculus with 24 samples.

Results

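The comparison set the 12 whole-eye arrays of a mouse form-deprivation study against its 6 retina arrays, 18 of the 24 arrays in the series, with both treatment arms of each tissue combined. Samples were chosen by their titles alone, so no measured value entered the choice. All animals were C57BL/6J mice aged 34 days. A frosted plastic diffuser had covered the right eye for 10 days from postnatal day 24, a procedure that makes the growing eye short-sighted, and the uncovered left eye served as the control. The whole-eye arrays came as 6 control and 6 myopia arrays, and the retina arrays as 3 titled control and 3 titled myopia arrays. For the retina, the titles name the arm opposite to the other labels, and for the whole eye the description does, so the arms are called by title here; a mean over both arms does not depend on which is right. The labels count 6 mice for whole eye and 9 for retina of 15 in all. They do not say which animals, or pools of them, went on which array. The 12 whole-eye arrays outnumber the 6 mice, so they cannot all come from different animals. The main fit and the permutation tests treated arrays as independent, and fellow eyes were not paired. The spread that enters the p-values is that between arrays and may be technical. The 6 sclera arrays, 3 titled control and 3 titled myopia, were used only as a further tissue to set beside them.

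Mature miRNAs are short RNAs that are loaded from either strand of a hairpin into Argonaute and repress messenger RNAs that pair with their seed, bases 2 to 8 of the miRNA. Many are restricted to a tissue layer: the retina is rich in neuronal and photoreceptor miRNAs, the lens and cornea in epithelial miRNAs, and the sclera, choroid and eye muscles in mesenchymal, vascular and muscle miRNAs. A whole eye holds the retina together with all of these, so the comparison asks what the tissues outside the retina add to the retinal profile and which retinal miRNAs become a smaller part of the total.

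Sequences of the miRNAs on which the results turn are given first, from RefSeq (GRCm38.p6), 5′ to 3′ with the seed in capitals. The first set holds miR-205-5p and the miR-200 family, epithelial miRNAs that were called higher in whole eye; the family has 2 seeds, one shared by miR-200b, miR-200c and miR-429 and one by miR-200a and miR-141.
miR-205-5p: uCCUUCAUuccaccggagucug
miR-200b-3p: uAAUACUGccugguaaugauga
miR-200c-3p: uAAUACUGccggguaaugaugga
miR-429-3p: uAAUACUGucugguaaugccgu
miR-200a-3p: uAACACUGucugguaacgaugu
miR-141-3p: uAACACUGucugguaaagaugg

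The second set holds the leading lens, epithelial and mesenchymal miRNAs with both strands of the miR-214 hairpin, whose strands differed in opposite directions.
miR-184-3p: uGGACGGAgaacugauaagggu
miR-31-5p: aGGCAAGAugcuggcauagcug
miR-199a-3p: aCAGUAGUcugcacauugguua
miR-199a-5p: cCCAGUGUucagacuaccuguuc
miR-214-3p: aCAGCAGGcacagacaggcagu
miR-214-5p: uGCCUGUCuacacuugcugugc

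The third set holds retinal miRNAs that were lower in whole eye: miR-9-5p of neurons and the 3 photoreceptor miRNAs of the miR-183 cluster.
miR-9-5p: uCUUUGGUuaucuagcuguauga
miR-182-5p: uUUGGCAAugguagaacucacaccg
miR-183-5p: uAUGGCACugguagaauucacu
miR-96-5p: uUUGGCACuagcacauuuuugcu

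The last set holds pairs that share a seed but differed in opposite directions between the tissues.
miR-132-3p: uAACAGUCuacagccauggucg
miR-212-3p: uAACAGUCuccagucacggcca
miR-20b-5p: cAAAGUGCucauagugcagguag
miR-106b-5p: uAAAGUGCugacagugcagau
miR-18a-5p: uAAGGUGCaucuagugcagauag
miR-18b-5p: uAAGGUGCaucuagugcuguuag

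Each level below is the log2 of a miRNA's summed probe signal after division by a per-array reference, the 75th percentile of the 237 miRNAs that every one of the 24 arrays detected. A level of 0 is therefore that percentile, and signals were floored at -7.45. Levels of different miRNAs come from different probes and were not set against each other. A difference is whole eye minus retina on this log2 scale, and a miRNA was called where limma's adjusted p was under 0.05. Of 696 miRNAs, 426 were tested, those that 2 or more of every 3 arrays detected in some group. The whole-eye arrays detected 305 to 357 miRNAs (mean 334 ± 15.7, SD, n = 12) and the retina arrays 353 to 401 (mean 377 ± 19.4, SD, n = 6). The difference of -43.3 miRNAs had p = 0.000215 in an exact permutation test, two-sided. Within the titled control arms it was -36.0 and within the titled myopia arms -50.7, each at the smallest p that an exact permutation of 6 and 3 arrays allows (p = 0.0238).

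The arrays differed in brightness as well as in tissue. The summed signal of the retina arrays averaged 1.68 times that of the whole-eye arrays (exact permutation p = 0.000108, two-sided, n = 12 and 6), and the hur control spots 1.70 times. The dmr control spots averaged 1.08 times (exact permutation p = 0.394, two-sided, n = 12 and 6). The bright corner spots, a printed control, read 137 to 487 on whole-eye arrays and 196 to 576 on retina arrays, a difference of -146 (exact permutation p = 0.0395, two-sided). That difference was -137 in the titled control arms (exact permutation p = 0.0476) and -155 in the titled myopia arms (exact permutation p = 0.119), with 6 and 3 arrays each. The part of array brightness in the results below was not tested. Each of the 3 slides held 4 whole-eye and 2 retina arrays, always in the same positions, so position on the slide and tissue cannot be told apart. One retina array, titled control replicate 3, held the highest retina level for 35.5% of the 411 tested miRNAs above the floor in a retina array. It held it for 7 of 10 tested fibroblast, 4 of 4 cartilage, 2 of 2 lens and 2 of 2 smooth muscle miRNAs. The same was so for 3 of 3 photoreceptor, 8 of 9 let-7, 9 of 10 miR-17 cluster and 4 of 5 miR-30 miRNAs, for 3 of 7 of surface epithelium and 2 of 6 core neuronal ones, and for 1 of 33 of the Dlk1-Dio3 locus. Log2 signals of the titled control retina arrays correlated with each other at r = 0.885 to 0.979, and those of the titled myopia retina arrays at 0.987 to 0.996, as a description across miRNAs. Without this array the list medians that follow were 4.05 in place of 3.53 for lens, 1.76 in place of 1.64 for fibroblast and 2.95 in place of 2.79 for skeletal muscle, and 4.50 both ways for surface epithelium. Why this array stood apart was not tested.

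Most of the measured miRNAs differed between whole eye and retina. Most tested members of the epithelial, lens, fibroblast, skeletal muscle and leukocyte lists were called higher in whole eye, and most of the neuronal and photoreceptor lists lower. Of the 426 tested miRNAs, 96 (22.5%) were called higher and 267 (62.7%) lower, 363 in all (85.2%), and 63 were not called. All 12 whole-eye arrays lay outside the range of the 6 retina arrays for 234 miRNAs (54.9%), 73 above (17.1%) and 161 below (37.8%). The highest difference was 7.08, for miR-205-5p, and the lowest -3.99, for miR-1927. On this scale 12 differences exceeded 3 and 9 lay below -3.

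The split between higher and lower calls moved with the scaling. The median difference over all tested miRNAs was -0.68 as scaled here, and it was -0.15, -0.38, -0.21 and -0.25 when the percentile was taken over all miRNAs, when arrays were scaled to their summed signal, after quantile normalization and in the authors' deposited value table. It was -0.99 with dmr control spot scaling and -1.10 with no scaling. The counts of higher and lower calls became 135 and 171 with the percentile over all miRNAs, 123 and 187 after quantile normalization, and 126 and 189 in the deposited value table. Of the 96 higher calls, 43 were called higher under all 7 other scalings and backgrounds tried, and none was called lower under any of them. Of the 267 lower calls, 82 were called lower under all 7, and 14 were called higher under at least 1. For several of the lists below, the median is therefore also given relative to the median of all tested miRNAs.

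**Figure D1:**
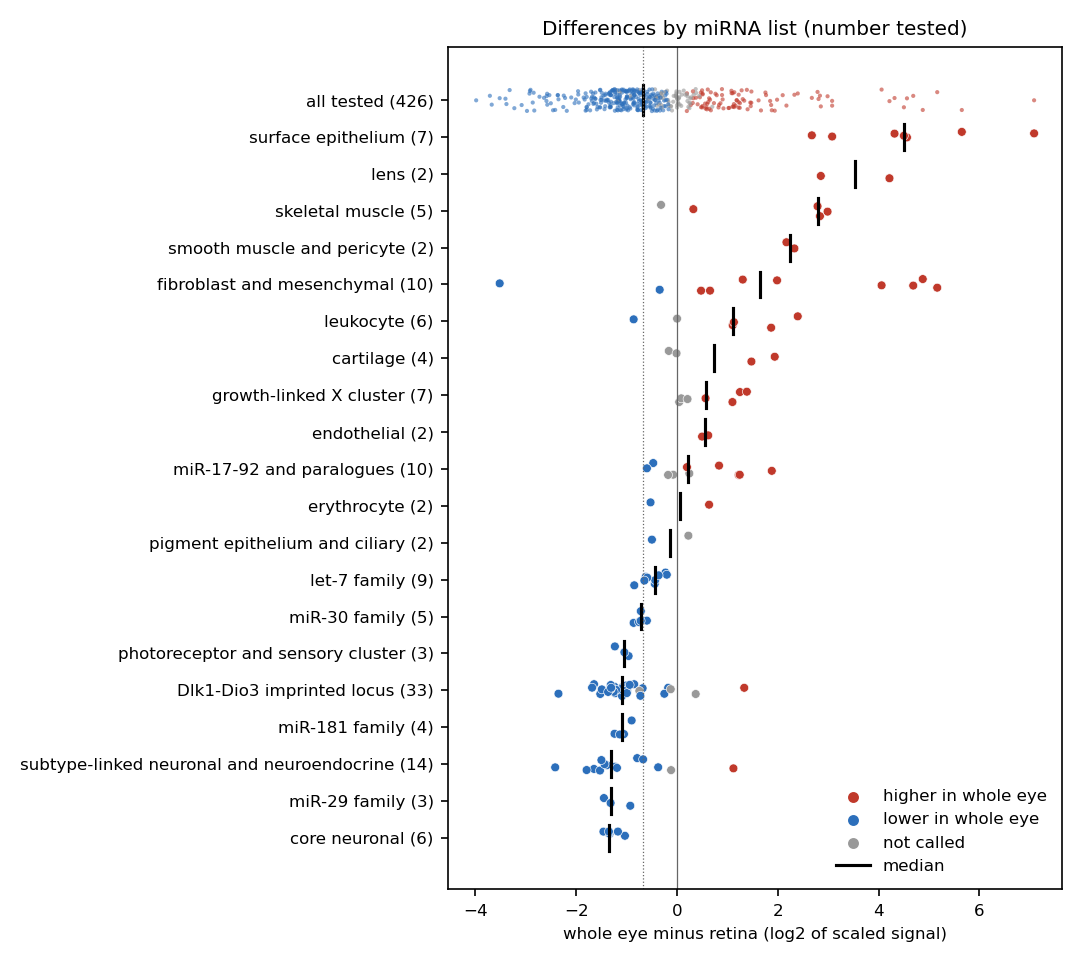
Difference between whole eye and retina (log2, x axis) for every tested miRNA (top row) and for the members of each list (rows, number tested in brackets). Each point is a miRNA coloured by its call, the black bar is the row's median, and the dotted line is the median of all tested miRNAs (-0.68). As scaled here, surface epithelium has the highest median (4.50) and core neuronal the lowest (-1.35).

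Surface epithelium had the highest list median as scaled here; with normexp the medians were 3.03 for lens, 1.71 for skeletal muscle and 1.21 for surface epithelium. The 7 epithelial miRNAs tested, miR-205, miR-203 and the miR-200 family, were all called higher in whole eye, against 22.5% of all tested miRNAs. Their median difference was 4.50, which is 5.18 above the median of all tested miRNAs. miR-205 and the miR-200 family are markers of the corneal, conjunctival and lid epithelia, and the miR-200 family holds epithelial cells in their state by repressing ZEB1 and ZEB2. None of the 12 whole-eye arrays overlapped the retina arrays for any of the 7, whereas 17.1% of all tested miRNAs lay wholly above the retina range.

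miR-205-5p, encoded on chromosome 1 (mm9, chr1:195333669-195333684, minus strand), read -0.89, -0.19 and 0.50 at the lowest, median and highest whole-eye array. On 5 retina arrays it lay at the floor, and it was detected only on titled control replicate 3, at -6.01. The difference was 7.08 (SE 0.36, adjusted p = 4.12e-13). With 5 retina arrays at the floor, its size depends on where the floor was set. Without titled control replicate 3, no retina array detected miR-205-5p. The highest retina array thus lay far below the lowest whole-eye array. Against sclera, where calls were made for 70.2% of all tested miRNAs (40.4% higher and 29.8% lower in whole eye), the difference was 0.78 (adjusted p = 0.0577); these contrasts share the whole-eye arrays.

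miR-200b-3p ranged from -2.57 to -1.20 (median -1.76) in whole eye and from the floor to -7.24 in retina, a difference of 5.65 (SE 0.30, adjusted p = 9.52e-13). It was detected on 1 retina array, so the size of this difference also depends on the floor. miR-200a-3p, miR-141-3p and miR-200c-3p were detected on every whole-eye array and on no retina array, so only bounds can be given. miR-200a-3p was at least 23.4-fold higher in whole eye, miR-141-3p at least 22.4-fold and miR-200c-3p at least 19.7-fold. With normexp background correction, which adds an offset and so draws dim signals together, the 3 differed by 1.23, 1.21 and 1.10 and miR-205-5p by 3.33, all 4 still called higher. miR-429-3p, from the same hairpin cluster as miR-200b and miR-200a (mm9, chr4:155428067-155429855, minus strand), was detected on 4 retina arrays and rose by 3.08 (SE 0.35). miR-203-3p, a miRNA of differentiating epidermis and cornea, was detected on all 6 retina arrays between -6.39 and -6.00 and rose by 2.67 (SE 0.26). Against sclera these members differed by -0.29 to 0.78, and none of those differences passed the test.

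The lens and corneal miRNAs rose as well, but with a wide spread among retina arrays. miR-184-3p, abundant in lens and corneal epithelium, read 3.08, 3.59 and 3.98 at the lowest, median and highest whole-eye array. The 3 titled control retina arrays read -3.48, 0.40 and 2.18 and the 3 titled myopia arrays -0.84, -1.03 and -0.92. The tissues did not overlap, and the highest retina array, titled control replicate 3, came nearest to the lowest whole-eye array. The difference was 4.21 (SE 0.54, adjusted p = 4.56e-07); it was 4.83 without titled control replicate 3 and 3.42 without titled control replicate 1, the lowest. Within the 3 slides it was 5.67, 4.14 and 2.83.

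miR-31-5p, another epithelial and lens miRNA, was likewise highest in titled control replicate 3 and lowest in titled control replicate 1 among the retina arrays. It read -0.77, -0.37 and -0.13 in whole eye, -4.76, -2.72 and -1.29 on the titled control retina arrays and -3.61, -3.62 and -3.66 on the titled myopia ones. Its difference was 2.85 (SE 0.29, adjusted p = 1.58e-08), and that of its other strand, miR-31-3p, 2.81 (SE 0.32). Both miR-184-3p and miR-31-5p were also higher in whole eye than in sclera, by 2.06 (adjusted p = 0.0021) and 2.26 (adjusted p = 5.4e-07). The scaled signals of the 2 lens-list miRNAs were also summed without the log2. The sum ran from 9.04 to 16.5 in whole eye and from 0.126 to 4.94 in retina. It was 4.94 in titled control replicate 3 and at most 1.47 in the other 5 retina arrays.

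**Figure D2:**
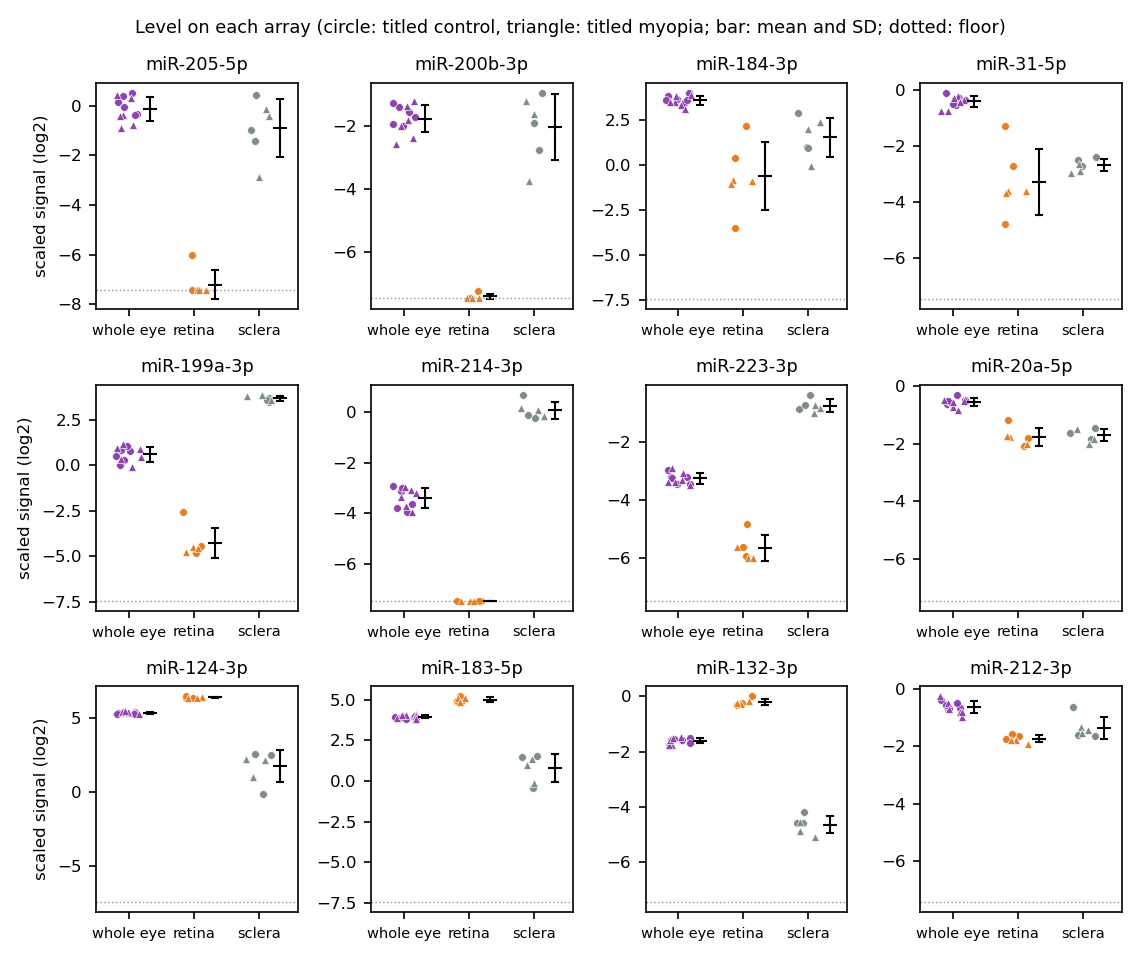
Level (log2 of scaled signal, y axis) on each array for 12 miRNAs in whole eye (12 arrays), retina (6) and sclera (6); circles are titled control and triangles titled myopia arrays, the bar beside each tissue is the mean with SD, and the dotted line is the floor (-7.45). miR-205-5p lies at the floor on 5 of 6 retina arrays, miR-184-3p spreads from -3.48 to 2.18 in retina, and miR-212-3p is higher in whole eye than in retina whereas miR-132-3p is lower.

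Mesenchymal miRNAs formed the next group. The miR-214 hairpin and a miR-199a hairpin are carried by a long transcript of fibroblasts and other connective tissue cells. miR-199b lies apart from them, on chromosome 2. Of 10 fibroblast-type miRNAs tested, 8 were called higher in whole eye and 2 lower (22.5% and 62.7% over all tested miRNAs). Their median was 1.64, or 2.32 above that of all tested miRNAs. The 2 lower were miR-21-5p and miR-214-5p, the minor strand of its hairpin. Of those called higher, miR-10b-5p (0.48) and miR-24-2-5p (0.65) were each detected on only 2 of 12 whole-eye arrays and on no retina array.

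miR-199a-3p read -0.08, 0.63 and 1.17 in whole eye and -4.84, -4.53 and -2.60 in retina, a difference of 4.87 (SE 0.25, adjusted p = 4.23e-13). The highest retina value was again titled control replicate 3, without which the difference was 5.21. miR-199b-5p rose by 5.16 (SE 0.28) and miR-199a-5p by 4.69 (SE 0.26), with no overlap between the tissues. The differences from sclera were -3.14 to -3.09 for the 3. miR-214-3p was detected on all 12 whole-eye arrays and on no retina array, and was at least 16.5-fold higher; with normexp it differed by 0.97. miR-152-3p rose by 1.98 (SE 0.12) and miR-27a-3p by 1.30 (SE 0.12). miR-21-5p differed by -0.35 (SE 0.10, adjusted p = 0.00505). Its sign turned, to 0.19, when the percentile was taken over all miRNAs. Fitted on the 18 whole-eye and retina arrays alone with the scaling unchanged it was -0.35 (adjusted p = 0.000831). It was -0.11 and not called where the scaling set was also redrawn from those 18 arrays, which moved the median difference by 0.24.

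Muscle miRNAs, known from the extraocular muscles and from the smooth muscle of iris, ciliary body and vessels, came next. Of 5 skeletal muscle miRNAs tested, 4 were called higher in whole eye, against 22.5% of all tested miRNAs. The 2 smooth muscle and pericyte miRNAs tested were both called higher. miR-1a-3p, which promotes muscle differentiation, read -1.05 to -0.32 in whole eye and -4.58 to -2.70 in retina, and rose by 2.99 (SE 0.20, adjusted p = 3.34e-11). miR-133a-3p and miR-133b-3p, which are transcribed together with miR-1 family members in muscle, rose by 2.83 and 2.79 (SE 0.16 each). None of these 3 overlapped between the tissues.

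miR-206-3p shares a hairpin cluster with miR-133b (mm9, chr1:20669142-20672936, plus strand) and is specific to skeletal muscle, yet it was not called. It read -4.57 to -3.75 in whole eye and -6.00 to -2.51 in retina, a difference of -0.32 (SE 0.26, adjusted p = 0.252), with the retina arrays lying on both sides of the whole-eye arrays. miR-499-5p, carried in a myosin heavy chain gene, rose by 0.32 (SE 0.09), which turned to -0.11 with no scaling. It lay at the floor on all 6 sclera arrays, whereas whole eye minus sclera was -1.66 to -1.46 for miR-1a-3p, miR-133a-3p and miR-133b-3p. miR-143-3p and miR-145-5p, partners in smooth muscle, rose by 2.17 (SE 0.12) and 2.33 (SE 0.13).

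The medians of the blood-cell and vessel lists were smaller than those of the muscle lists. Of 6 leukocyte miRNAs, 4 were called higher and 1 lower (22.5% and 62.7% over all tested miRNAs). Their median was 1.12, or 1.79 above that of all tested miRNAs. miR-223-3p, of neutrophils and monocytes, read -3.50 to -2.92 in whole eye and -6.00 to -4.83 in retina, and rose by 2.39 (SE 0.13, adjusted p = 1.16e-12). miR-146a-5p, which restrains innate immune signalling, rose by 1.87 (SE 0.09), miR-155-5p by 1.13 (SE 0.23, with overlapping tissues) and miR-142-3p by 1.10 (SE 0.15). miR-142-5p was at the floor on all 18 arrays. miR-150-5p, of lymphocytes, fell by 0.86 (SE 0.12). Both strands of endothelial miR-126 were called higher, by 0.62 (SE 0.06) for miR-126-3p and 0.50 (SE 0.07) for miR-126-5p. Of 2 erythrocyte miRNAs tested, miR-451 rose by 0.64 (SE 0.13) and miR-144-3p, detected on 1 whole-eye array, differed by -0.53 (SE 0.24, adjusted p = 0.0497).

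The cartilage list split by hairpin. miR-140, carried in the Wwp2 gene and needed for skeletal growth, did not pass the test on either strand: miR-140-5p differed by -0.16 (SE 0.08) and miR-140-3p by -0.01 (SE 0.08). Both strands of miR-455 were called higher, by 1.94 (SE 0.16) for miR-455-3p and 1.48 (SE 0.17) for miR-455-5p. Whole eye minus sclera was -2.34 to -1.85 for the 4. In the growth-linked cluster on the X chromosome, 4 of 7 tested miRNAs were called higher and none lower (22.5% and 62.7% over all tested miRNAs). Its leading members were miR-322-5p, which slows the cell cycle and rose by 1.25 (SE 0.11), and miR-503-5p. miR-503-5p was detected on 11 of 12 whole-eye arrays and no retina array, and was at least 2.59-fold higher in whole eye.

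The core neuronal miRNAs were all lower in whole eye, within a narrow range. Against 62.7% called lower over all tested miRNAs, all 6 core neuronal miRNAs tested, from miR-124, miR-9, miR-128 and miR-129, were called lower. They lay between -1.46 and -1.03, with a median of -1.35 (-0.67 relative to that of all tested miRNAs). These miRNAs mark neurons throughout the nervous system; miR-124 represses non-neuronal transcripts and miR-9 acts in neural progenitors and neurons. In bulk tissue, fewer neurons and less of a miRNA per neuron cannot be told apart.

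miR-124-3p read 5.31, 5.39 and 5.49 at the lowest, median and highest whole-eye array and 6.37, 6.39 and 6.5 in retina. The 2 tissues did not overlap, and their SDs were 0.06 and 0.05. The difference was -1.03 (SE 0.27, adjusted p = 0.00173); the fit pools the spread with sclera, where this miRNA varied more. miR-9-5p read -0.07 to 0.31 in whole eye and 1.26 to 1.43 in retina and fell by 1.34 (SE 0.12), and its other strand miR-9-3p fell by 1.36 (SE 0.11). miR-128-3p fell by 1.17 (SE 0.07), miR-129-5p by 1.46 (SE 0.25) and miR-129-2-3p by 1.35 (SE 0.14). Within the 3 slides the median of the 6 was -1.34, -1.38 and -1.25, and over the 7 other scalings it ran from -1.78 to -0.81.

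The 3 photoreceptor miRNAs were all called lower, as were 62.7% of all tested miRNAs. miR-182, miR-96 and miR-183 form a cluster (mm9, chr6:30115933-30119733, minus strand) that is expressed in photoreceptors and other sensory cells and is needed for cone outer segments. miR-183-5p read 3.82, 3.97 and 4.10 in whole eye and 4.90, 5.0 and 5.22 in retina, and fell by 1.05 (SE 0.22, adjusted p = 0.000213). miR-182-5p fell by 0.96 (SE 0.22) and miR-96-5p by 1.23 (SE 0.31), and neither overlapped between the tissues. The scaled signals of the 3, summed without the log2, came to 44.8 to 56.4 in whole eye and 100.1 to 131 in retina. The highest retina sum was again that of titled control replicate 3, and the other 5 reached at most 115. The median of the 3 was -1.05, or -0.37 relative to that of all tested miRNAs. Whole eye minus sclera had a median of 3.20 over these 3 miRNAs and 3.60 over the core neuronal list.

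Neuronal miRNAs that mark subsets of cells varied more. Of 14 tested, 12 were called lower (62.7% over all tested miRNAs), 1 higher and 1 was not called. Their median was -1.31, or -0.63 relative to that of all tested miRNAs. The largest fall was that of miR-383-5p, -2.42 (SE 0.15). It read -7.45 to -6.28 in whole eye, where 3 of 12 arrays detected it, and -5.53 to -3.75 in retina. On titled control retina replicates 1, 2 and 3 it read -4.35, -4.82 and -5.53, and on the titled myopia ones -4.37 to -3.75. With normexp miR-383-5p differed by -0.39, and it kept its call under 6 of the 7 other scalings and backgrounds. miR-153-3p fell by 1.79 (SE 0.18), miR-137-3p by 1.65 (SE 0.09), miR-138-5p by 1.53 (SE 0.08) and the 2 miR-7 miRNAs, miR-7a-5p and miR-7b-5p, by 1.44 and 1.5 (SE 0.14 and 0.13). miR-375-3p, known from endocrine cells, fell by 0.79 (SE 0.06). miR-218-5p differed by -0.37 (SE 0.11), with overlapping tissues, and this turned to 0.16 with the percentile over all miRNAs. miR-135a-5p was not called (-0.12, SE 0.10).

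The 1 neuronal-list miRNA that rose was miR-212-3p. miR-132 and miR-212 are processed from the same activity-regulated transcript (mm9, chr11:74986954-74987246, plus strand) and share the seed shown above. miR-132-3p read -1.77, -1.58 and -1.46 in whole eye and -0.30, -0.23 and 0.00 in retina, and fell by 1.39 (SE 0.08, adjusted p = 1.25e-12). miR-212-3p read -0.98, -0.65 and -0.25 in whole eye and -1.91, -1.76 and -1.57 in retina, and rose by 1.12 (SE 0.12, adjusted p = 4.93e-08). Neither overlapped between the tissues, and each kept its call under all 7 other scalings. In sclera both were lower than in whole eye, by 3.04 for miR-132-3p and 0.74 for miR-212-3p.

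The imprinted Dlk1-Dio3 locus on chromosome 12, a long block of hairpins expressed from the maternal chromosome, was mostly lower. Of 33 tested miRNAs, 28 were called lower and 1 higher, against 62.7% and 22.5% of all tested miRNAs. The median was -1.09 (-0.42 relative to that of all tested miRNAs). miR-376a-3p fell by 1.69 (SE 0.17), miR-495-3p by 1.37 (SE 0.06), miR-410-3p by 1.32 (SE 0.06) and miR-127-3p by 1.0 (SE 0.08). For these 4, whole eye minus sclera was 0.06, 0.89, 0.19 and -1.14. The exception was miR-494-3p, which lies inside the largest hairpin cluster of the locus (mm9, chr12:110947280-110986124, plus strand). It read -2.16, -1.61 and -1.30 in whole eye and -3.18, -2.96 and -2.89 in retina and rose by 1.33 (SE 0.11, adjusted p = 7.26e-10). In that cluster 30 of 38 tested strands were called lower, and miR-494-3p was the 1 called higher.

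Of the 4 uncalled members of the locus, miR-485-5p was lost to a single array of another tissue. It read -6.63 to -6.07 in whole eye and -5.21 to -4.99 in retina, without overlap, but its pooled spread was set by 1 sclera array at 3.88, and the difference of -1.32 had an SE of 0.90 (adjusted p = 0.176). Fitted on the 18 whole-eye and retina arrays alone, with the scaling unchanged, it was called at -1.32 (SE 0.08, adjusted p = 2.27e-10). miR-376c-3p overlapped between the tissues and differed by -0.75 (SE 0.65), with an SE of 0.28 and adjusted p = 0.0206 in the fit on those 18 arrays.

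Widely expressed families were lower too, some by no more than the median of all tested miRNAs, of which 62.7% were called lower. All 5 miR-30 miRNAs were called lower, between -0.86 (miR-30b-5p) and -0.60 (miR-30a-5p), with a median of -0.72, or -0.04 relative to that of all tested miRNAs. The 4 miR-181 miRNAs fell by 0.90 (miR-181d-5p) to 1.24 (miR-181a-5p), and the 3 miR-29 miRNAs, which repress collagen transcripts, by 0.93 (miR-29a-3p), 1.32 (miR-29c-3p) and 1.45 (miR-29b-3p). Whole eye minus sclera was 1.5 for miR-29c-3p and -0.58 for miR-29a-3p. The 9 let-7 miRNAs, which rise as cells differentiate, were all called lower with a median of -0.44, which is 0.24 above that of all tested miRNAs and turned to 0.10 with the percentile over all miRNAs. Within the family the differences ran from -0.85 (let-7g-5p) to -0.20 (let-7c-5p).

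Of the 2 pigment epithelium and ciliary miRNAs, 1 was called lower and 1 was not called. miR-204 and miR-211 are hallmarks of the retinal pigment epithelium and ciliary body, differ by little in sequence and share a seed. miR-204-5p read 3.55, 3.71 and 3.84 in whole eye and 3.29, 3.45 and 3.80 in retina, overlapping between the tissues, and differed by 0.22 (SE 0.12, adjusted p = 0.0793). Fitted on the 18 whole-eye and retina arrays alone, with the scaling unchanged, the same difference was called (SE 0.06, adjusted p = 0.0022), and with no scaling it turned to -0.21. miR-211-5p read 2.97, 3.13 and 3.34 in whole eye and 3.53, 3.63 and 3.72 in retina, without overlap, and fell by 0.50 (SE 0.08, adjusted p = 1.07e-05), which turned to 0.040 with the percentile over all miRNAs. Whole eye exceeded sclera by 1.19 for miR-204-5p and 1.07 for miR-211-5p.

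The cluster from miR-17 to miR-92a and its paralogues, which promote proliferation, were mixed. Of 10 tested, 5 were called higher and 2 lower (22.5% and 62.7% over all tested miRNAs). miR-20a-5p read -0.84, -0.51 and -0.30 in whole eye and -2.10, -1.79 and -1.18 in retina and rose by 1.22 (SE 0.11, adjusted p = 2.20e-09). Its paralogue on the X chromosome, miR-20b-5p, rose by 1.24 (SE 0.10) and miR-18a-5p by 1.88 (SE 0.22). miR-17-5p was detected on 10 of 12 whole-eye arrays and no retina array and was at least 1.78-fold higher in whole eye. The differences from sclera were 1.17, 0.95, 1.29 and 0.90 for these 4. The third paralogous cluster, on chromosome 5, was mixed: miR-106b-5p fell by 0.47 (SE 0.10) and miR-25-3p by 0.60 (SE 0.07), while miR-93-5p rose by 0.20 (SE 0.07). Under no scaling miR-93-5p turned to -0.24, and with the percentile over all miRNAs miR-106b-5p turned to 0.066.

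Shared seeds did not fix the direction. RefSeq sequences matched 319 of the 426 tested miRNAs, which formed 30 seed families of at least 2 members. As 62.7% of all tested miRNAs were called lower and 22.5% higher, a shared direction is frequent without a shared seed. In 16 families every member was called in the same direction, and in 6 the calls went both ways, among them miR-132 with miR-212 and miR-20a and miR-20b with miR-106b. miR-18a-5p rose by 1.88, as above, while its pair miR-18b-5p was detected on no whole-eye array and on 5 of 6 retina arrays, and was at least 8.19-fold lower in whole eye. miR-18b-5p read -2.66, -5.02 and -6.68 on the titled control retina arrays and -1.98, -1.92 and -2.51 on the titled myopia ones, against -7.45 to -5.02 in whole eye, so the tissues overlapped. With normexp it differed by -0.68 and was not called (adjusted p = 0.0788).

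The 2 strands of a hairpin mostly had calls in the same direction. Of 74 hairpins with both strands tested, 56 had both strands called, 48 in the same direction and 8 in opposite directions. Over all tested miRNAs 62.7% were called lower and 22.5% higher, so unrelated miRNAs often share a direction too. Across the 31 hairpins whose strands were both detected on all 18 arrays, the differences of the 2 strands correlated with r = 0.92, and across all 74 with r = 0.27. miR-199a alone stood far from the other well-measured hairpins, and without it r was 0.68 over 30; these are correlations across miRNAs that share arrays, given as a description. The 8 with opposite calls were miR-214, miR-200a, miR-141, miR-18a, miR-188, miR-125a, miR-17 and miR-139.

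The 3 widest gaps were those of miR-214, miR-200a and miR-141. miR-214-3p rose by at least 16.5-fold as above, while miR-214-5p read -7.45, -6.42 and -4.61 in whole eye and -5.97, -1.86 and -1.27 in retina, a difference of -3.52 (SE 0.35, adjusted p = 8.95e-09) with overlapping tissues. miR-200a-5p and miR-141-5p were detected on no whole-eye array and on 4 of 6 retina arrays, and were at least 4.90-fold and 3.95-fold lower in whole eye, the means of the 6 retina arrays being taken. With normexp background correction miR-214-5p differed by -0.94, miR-200a-5p by -0.37 (adjusted p = 0.406) and miR-141-5p by -0.19 (adjusted p = 0.742). The 3p strands of all 3 kept their calls there. On titled control retina replicates 1, 2 and 3 miR-214-5p read -1.97, -4.60 and -5.97 and miR-200a-5p -4.124, -6.455 and -7.445. Their titled myopia retina arrays read -1.75 to -1.27 and -4.08 to -3.11. Across the titled control replicates miR-141-5p, miR-18b-5p and miR-1927, described below, fell in the same order. The part of array differences in the opposite calls was not tested.

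**Figure D3:**
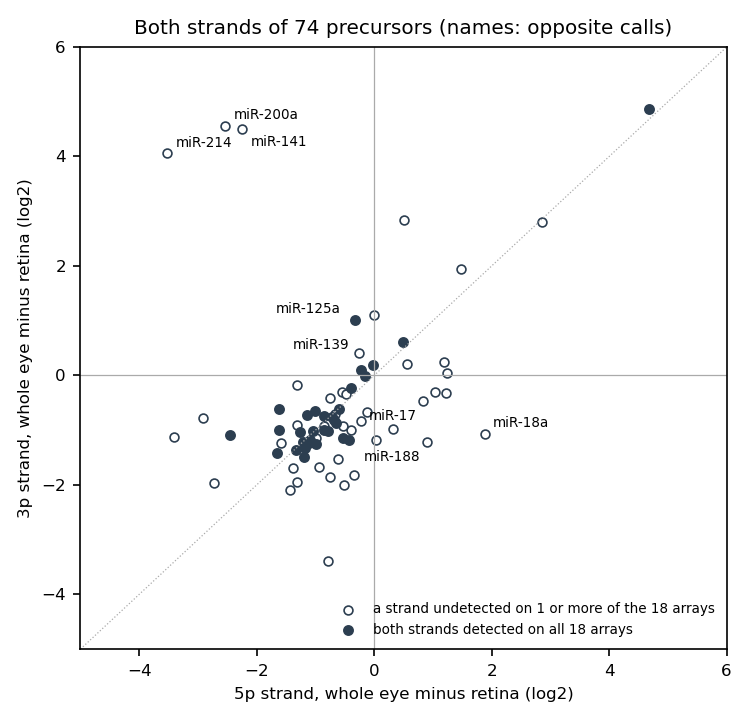
Difference between whole eye and retina (log2) of the 5p strand (x axis) against the 3p strand (y axis) for 74 hairpins; filled points have both strands detected on all 18 arrays, open points do not, and names mark opposite calls. Filled points had a median gap between strands of 0.21 and r = 0.92, or 0.68 without miR-199a at the upper right. Among them miR-338, miR-125a and miR-674 lie farthest from the dotted line of equality (gaps of 1.37, 1.35 and 1.01). The open points miR-214, miR-200a and miR-141 stand apart at the upper left.

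The largest falls among miRNAs measured in both tissues belonged to a set whose levels varied from array to array. The 12 largest were miR-1927, miR-190b-5p, miR-466h-5p, miR-302c-5p, miR-669b-5p, miR-468-3p, miR-467c-5p, miR-760-3p, miR-672-5p, miR-669e-5p, miR-294-3p and miR-338-5p, with differences of -3.99 to -2.46. All 12 overlapped between the tissues.

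miR-1927 read -7.45 on 5 of 6 whole-eye control arrays and -6.32 on the other, between -4.90 and -2.07 on the 6 whole-eye myopia arrays, -0.17, -3.20 and -4.47 on the titled control retina arrays, and between -0.56 and -0.28 on the titled myopia retina arrays. Its difference was -3.99 (SE 0.47, adjusted p = 1.16e-07). miR-190b-5p followed the same order, from -7.10 to -5.36 on whole-eye controls, -4.47 to -1.39 on whole-eye myopia arrays, -4.08 to 0.16 on titled control retina arrays and -0.23 to 0.23 on titled myopia retina arrays. Its difference was -3.71 (SE 0.47, adjusted p = 3.99e-07). Within slide 1 the 2 differed by -5.65 and -5.44, within slide 2 by -3.10 (adjusted p = 0.189) and -2.91 (adjusted p = 0.173), and within slide 3 by -3.21 (adjusted p = 0.0812) and -2.79 (adjusted p = 0.0963).

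The mean level of these 12 miRNAs was set beside the bright corner control spots, as was the core neuronal mean. Across the 6 whole-eye myopia arrays r was 0.90 (Spearman's rho 0.83; exact permutation p = 0.0611 and 0.0583), and across the 6 retina arrays r was 0.86 (rho 0.94; exact permutation p = 0.0694 and 0.0167). Over the 6 relations computed the adjusted p was 0.208 for each r and 0.175 and 0.10 for each rho, so none passed (exact permutation, n = 6 each). Across the 6 whole-eye control arrays r was -0.26 (exact permutation p = 0.656). Without the 2 arrays farthest from the median corner signal, r over 4 arrays was 0.59 in whole-eye myopia, 0.95 in retina and 0.75 in whole-eye control arrays. For the core neuronal mean r was -0.10, -0.0039 and -0.17 in whole-eye myopia, whole-eye control and retina arrays (exact permutation p = 0.919, 0.747 and 0.692), and without the 2 farthest arrays it was 0.66, 0.50 and -0.82. The values of r near 0 thus depended on those arrays. The part of the corner signal in the 12 falls was not tested.

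**Figure D4:**
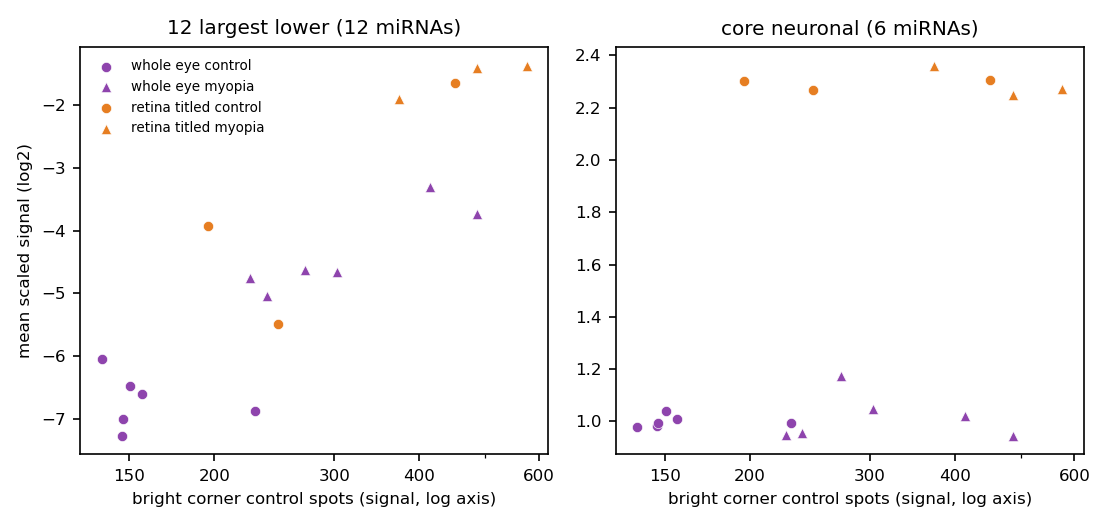
Mean level (log2 of scaled signal, y axis) of the 12 largest falls (left) and of the 6 core neuronal miRNAs (right) on each whole-eye and retina array against the bright corner control spots (x axis, log scale); circles are titled control and triangles titled myopia arrays. In the left panel the 6 whole-eye myopia arrays lie above the whole-eye controls, and in the right panel the tissues form 2 flat bands.

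A further 8 miRNAs were detected on every retina array and on no whole-eye array, so that bounds were computed for their differences. miR-101a-5p was at least 9.04-fold lower in whole eye, miR-539-5p at least 4.52-fold, miR-297c-5p at least 2.50-fold and miR-496-3p at least 2.26-fold. With normexp these 4 differed by -0.58, -0.24, -0.069 and -0.021, and none was called. The other 4 were miR-490-3p, miR-666-3p, miR-216b-5p and miR-29a-5p, and with normexp their differences turned to 0.0090, 0.082, 0.064 and 0.15. miR-29a-5p was 0.42 in the authors' deposited value table, so no direction is given for these 4. miR-101a-5p varied among retina arrays from -6.57 to -2.18, with titled control replicates 2 and 3 lowest.

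The tissue difference was also taken within each titled arm. It gave 88 higher and 221 lower calls in the titled control arms and 91 and 240 in the titled myopia arms. The tissue difference itself differed between the titled arms for 4 of 426 miRNAs (0.939%), miR-141-5p, miR-105, miR-673-3p and miR-1936, all of them detected on no whole-eye array. With no detected whole-eye level, the contrast for these 4 cannot be told apart from a difference between the retina arms alone. Leaving out 1 array at a time moved the count of 4 between 0, for example without retina titled control replicate 2, and 30, without retina titled control replicate 1.

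The list medians moved with the scaling by different amounts. Over the 7 other scalings and backgrounds the surface epithelium median ran from 1.21, with normexp, to 4.61, the lens median from 3.03 to 4.07 and the fibroblast median from 1.07 to 2.18. The photoreceptor median ran from -1.48 to -0.49, and that of the Dlk1-Dio3 locus from -1.53 to -0.36. The median of the miR-17 cluster list (0.22) ran from -0.22 to 0.76, the erythrocyte median (0.05) from -0.37 to 0.56 and the pigment epithelium median (-0.14) from -0.58 to 0.40, so these 3, like the let-7 median, have no direction that holds under every scaling.

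**Figure D5:**
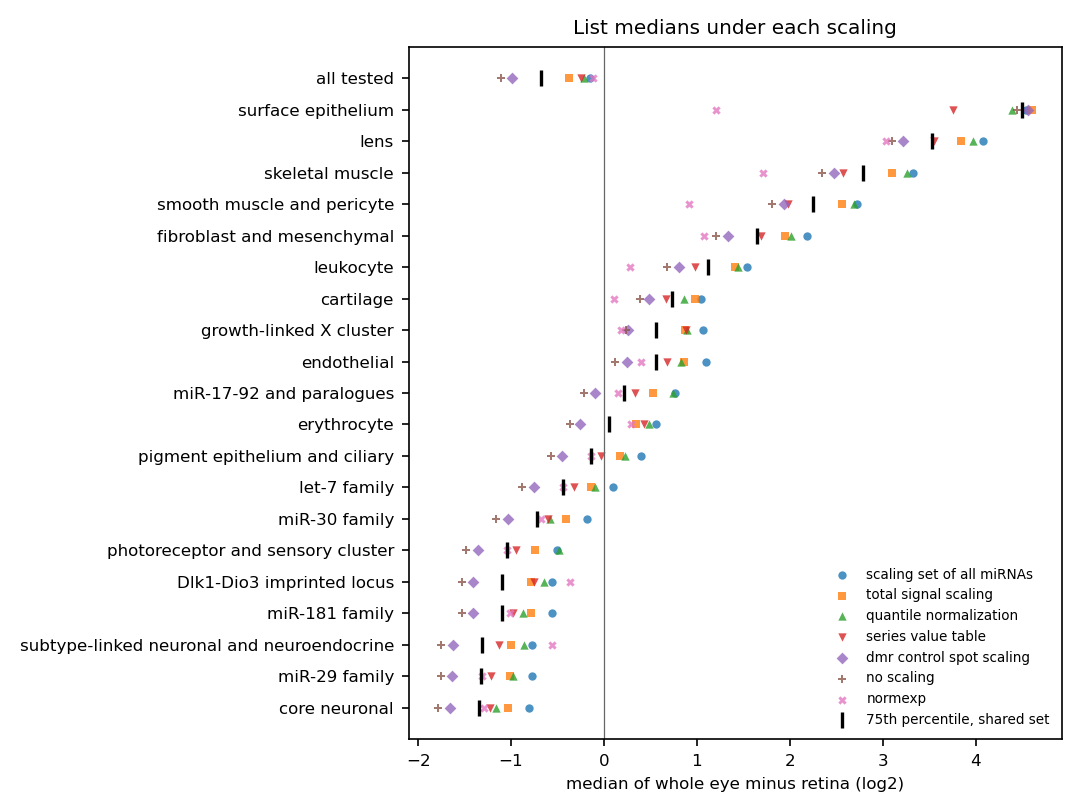
Median difference between whole eye and retina (log2, x axis) of all tested miRNAs and of each list (rows) as scaled in the text (black bar) and under 7 other scalings or backgrounds (symbols). Lists above endothelial stay right of 0, lists from miR-30 downward stay left of it, and the let-7, pigment epithelium, erythrocyte and miR-17 cluster medians cross it.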

How the data were processed

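RNA from 24 eye tissue samples was hybridised to 1-colour Agilent mouse miRNA arrays, and the 12 whole-eye and 6 retina arrays were compared. The authors deposited 1 scanner file per array, read with Agilent Feature Extraction 11 per the submitters' processing notes, whose processed signal is a background-subtracted intensity per the file headers. They also deposited a table of log2 values, used here as an alternative; how it was normalized is not stated in the labels or headers.

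Spots of non-control probes were averaged per probe and summed per miRNA, then scaled to the 75th percentile of the 237 miRNAs detected on all 24 arrays, floored and log2 transformed. miRNAs that 2 or more of every 3 arrays detected in some group were tested with limma 3.58.1 (R 4.3.3) in 1 fit over the 6 groups, two-sided with Benjamini-Hochberg adjustment at 0.05; every adjusted p comes from that fit unless another is named. The fit's estimate of spread pools all groups. Bounds ("at least N-fold") were set against the arrays of the tissue where a miRNA was not detected. Each such array gave the lowest signal of any miRNA detected on it, or the miRNA's own level where higher. The code was tested on simulated data.

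Named miRNAs were the 12 largest differences each way among those detected on at least 1 in every 2 arrays of both tissues, up to 8 bounds each way, list members, strand pairs with opposite calls and seed families with calls both ways. The members and lists were chosen with earlier results of these data known. Alternatives covered scaling, background, filter, floor, arrays fitted, slide, replicate number, arm and each array left out; scaling to dmr spots or none, leaving out outlier spots, single slides and the 18 arrays with the scaling of all 24 were chosen after seeing the data. The number of arrays limits the precision.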

Additional observations from a re-analysis of the deposited data

Results flagged for a closer look

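In 106 groups of 4 to 10 arrays checked, 11 held an array far from the others by Dixon's criterion. The value given is the gap to the nearest array as a share of the group's range. In 5 of them the array was retina titled control replicate 3, the highest of 6: miR-199b-5p (0.904; -2.79 against -5.41 to -5.16), miR-199a-3p (0.814; -2.60 against -4.84 to -4.42), miR-199a-5p (0.763; -4.37 against -6.83 to -6.25), miR-205-5p (1; -6.01 against the floor) and miR-200b-3p (1; -7.24 against the floor). Retina titled myopia replicate 1 was lowest for miR-203-3p (0.747; -6.39 against -6.10 to -6.00).

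The other 5 lay near the floor in whole eye. Whole-eye control replicate 3 was highest for miR-1927 (1; -6.32) and miR-214-5p (1; -7.21). Among whole-eye myopia arrays, replicate 6 was highest for miR-297c-5p (0.803; -6.79), replicate 2 for miR-496-3p (0.667; -6.21) and replicate 3 for miR-490-3p (1; -6.33). Where all other arrays lie at the floor, any array above it gives a value of 1. Chance gives about 1 in 20 only for unfloored values and independent groups, so it cannot be set against 11 of 106.

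The tissue difference differed between the titled arms for 4 miRNAs, by limma's interaction contrast with Benjamini-Hochberg adjustment. All 4 were detected on no whole-eye array, so a difference between the retina arms alone would give the same contrast. Titled myopia minus titled control was -2.01 for miR-105 (adjusted p = 0.00856), -2.49 for miR-141-5p (adjusted p = 0.0198), -1.74 for miR-1936 (adjusted p = 0.0198) and -2.0 for miR-673-3p (adjusted p = 0.0219). The sign rests on titles that conflict with other labels for retina.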

How the results depend on the processing

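Against 96 higher and 267 lower calls, normexp background gave 51 and 112, the percentile over all miRNAs 171 lower, and slides 2 and 3 alone 170 and 156 lower; fewer arrays were fitted in the single slides. Leaving out 1 array at a time gave 95 to 99 higher and 241 to 269 lower calls. The 4 calls of a tissue difference that differed between arms became 8 after quantile normalization, 17 with the files' own gene signal, 14 with a floor 4 times higher and 0 with normexp, the value table, a floor 4 times lower or the 18 arrays alone, with either scaling. They ran from 0 to 30 with 1 array left out. The bright corner difference was -155 in the titled myopia arms (exact permutation p = 0.119).

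Where the value was called on at least 1 side, the sign turned with the percentile over all miRNAs for the let-7 median (0.10), miR-21-5p (0.19), miR-140-5p (0.38), miR-140-3p (0.53), miR-218-5p (0.16), miR-135a-5p (0.42), miR-211-5p (0.040), miR-106b-5p (0.066), miR-125a-5p (0.21), miR-17-3p (0.068) and miR-139-5p (0.28). It turned after quantile normalization for miR-140-3p (0.39), miR-135a-5p (0.43), miR-17-3p (0.15) and miR-139-5p (0.34). It turned with total signal scaling for miR-140-3p (0.30) and miR-139-5p (0.050), and with the 18 arrays, their scaling set redrawn, for miR-140-3p (0.22). With normexp it turned for miR-144-3p (0.057), miR-18a-3p (0.066), miR-490-3p (0.0090), miR-139-5p (0.0093), miR-29a-5p (0.15), miR-666-3p (0.082) and miR-216b-5p (0.064), and in the value table for miR-144-3p (0.14), miR-18a-3p (0.043), miR-139-5p (0.092), miR-29a-5p (0.42) and miR-666-3p (0.037). With dmr scaling miR-93-5p was -0.12. With no scaling miR-93-5p was -0.24, miR-499-5p -0.11 and miR-139-3p -0.030. On slide 3, miR-188-3p was 0.16. Uncalled values of miR-140-5p, miR-140-3p, miR-135a-5p, miR-204-5p, miR-206-3p and miR-376c-3p also turned under some alternatives. The cause of these changes was not tested.

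Fitting the replicate number as a replicate block gave 93 higher and 246 lower calls. Same-numbered whole-eye and retina arrays deviated together weakly (r from -0.63 to 0.53 over 12 pairs, 5 over 0.1), so the numbers were not taken to pair them. A signal near the floor gives no order, and 1419 of 10224 tested values lay there.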

Other observations

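Probes whose miRNA name carries a database version suffix were mostly higher in whole eye. Of 25 on the array 19 were tested, and 14 were called higher in whole eye, 4 lower and 1 neither, with a median of 0.89. That is 73.7% higher, against 20.1% of the other 407 tested miRNAs, as a description with no test. For 12 of the 14 the call was higher under all 7 other scalings and backgrounds. The leading one, miR-2132_v15.0, read -0.51, -0.18 and 0.15 at the lowest, median and highest whole-eye array and -3.41, -3.29 and -2.98 in retina. Its difference was 3.08 (SE 0.10, adjusted p = 1.43e-15, limma), and whole eye minus sclera was 1.59.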
